A study of Mus musculus with 10 samples.

Results

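The IGKV6 family is a group of related kappa light-chain V genes of the mouse, and its use, pairing, CDR3, V mismatches and largest clonotypes were followed in the deep cervical lymph nodes of glioma-bearing mice. Its members were the productive kappa sequences whose V call named only genes of the family. They made up 14704 of 78287 productive kappa sequences, and 5418 of 34845 kappa clonotypes. A clonotype was a distinct combination of V call, J gene and junction nucleotides within a mouse. It may pool B cells that made the same join separately, so it is not taken as a clone of cells. The 8 genes followed were IGKV6-13, IGKV6-14, IGKV6-15, IGKV6-17, IGKV6-20, IGKV6-23, IGKV6-25 and IGKV6-32, and a 9th, IGKV6-29, also met the rule and was kept. Only 18 of the clonotypes named several IGKV6 genes.

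Receptor transcripts came from whole cells of nodes of wild-type C57BL/6 mice that carried GL261, a mouse glioma cell line, in the brain, taken on day 20 after implantation. Of these, 5 mice had received an antibody against CTLA-4, an inhibitory receptor of T cells, and 5 an isotype control IgG; 1 library was made per mouse, all mice carried the tumour, and the labels used here give no age. The comparison addresses how CTLA-4 blockade bears on B cell responses in nodes that drain the brain. Libraries held 33568 to 63017 assembled sequences of all chains and deposited counts of 382184 to 790139, with 2665 to 4105 kappa clonotypes and 410 to 685 IGKV6 clonotypes per mouse. Whether these counts are of reads or of molecules was not stated. The tables hold receptor sequences alone, so the labelled tissue could not be checked against markers of its cells, and more cells of a clonotype cannot be told apart from more transcript per cell.

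A kappa chain is made when 1 V gene is joined to 1 of the J genes in a developing B cell, and the join lies within the third hypervariable loop, CDR3. The locus can rearrange more than once in the same cell, with later joins generally using V genes farther upstream and J genes farther downstream. After antigen contact, germinal centre B cells introduce point mutations into the V region, and plasma cells then transcribe the receptor far more than resting B cells do. In the mouse gene table, the 9 genes lie near the J-proximal end of the kappa V genes, mostly separated from each other by IGKV8 genes.

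The germline V genes, read from the germline alignments of the deposited tables, differ in the bases they give to CDR3, so these ends are shown first. Each runs from the codon of the conserved cysteine to the end of the V gene, without the palindromic bases that some alignments carried past it.
IGKV6-13: tgccagcaatatagcagctatcct
IGKV6-14: tgtctgcaacattggaattatcctct
IGKV6-15: tgtcagcaatataacagctatcctct
IGKV6-17: tgtcagcaacattatagtactcctcc
IGKV6-20: tgtggacagagttacagctatcctcc
IGKV6-23: tgtcagcaatatagcagctatcctct
IGKV6-25: tgtcagcaacattatagcactcctcc
IGKV6-29: tgtggacagggttacagctatcttcc
IGKV6-32: tgtcagcaggattatagctctcctcc
Over the first 280 germline V positions, IGKV6-20 and IGKV6-29 were 98.6% identical, with 4 differences. IGKV6-13 and IGKV6-23 were 96.1% identical and IGKV6-17 and IGKV6-25 were 95.4% identical. The least alike pairs were IGKV6-20 and IGKV6-29 with IGKV6-32, both at 81.1%. Calls between the closest pairs rest on few bases and are the least certain, and gene calls were taken as deposited.

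Among the 10 mice, isotype mice 3 and 4 stood apart in sharing mutated IGKV6 sequences. These libraries held 13 identical sequences with 5 or more V mismatches, which made up 11.6% of the IGKV6 count of isotype mouse 3 and 7.54% of that of isotype mouse 4. The other 44 pairs of mice shared at most 1 such sequence, and 42 of them shared none. Outside the family, leaving out V calls that were mismatched in most of their clonotypes, the same pair shared 16 such sequences and the other pairs 6 to 18. The pair lay within the range of the others there. Since every pair shared at least 6, that background could mask an excess. It cannot decide whether the pair was ordinary outside IGKV6. Whether cells, RNA or reads were shared between these libraries was not tested, and values are given with and without both mice where they bear on a result.

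IGKV6 was the second most used of 19 kappa V families by clonotypes, after IGKV4. It held 15.8% ± 2.10 of kappa clonotypes in anti-CTLA-4 mice and 15.4% ± 1.02 in isotype mice (SD, n = 5 each). The shares were 15.4%, 13.9%, 18.7%, 14.0% and 17.1% in anti-CTLA-4 mice 1 to 5, against 14.0%, 15.4%, 16.8%, 15.5% and 15.0% in isotype mice 1 to 5. The groups overlapped, and the family's log2 fold change was 0.03 ± 0.08 (SE; edgeR quasi-likelihood test, adjusted p = 0.791). Of 17 families tested, 0 passed an adjusted p of 0.05 (0% called), and 0 passed an unadjusted p of 0.05 by edgeR or DESeq2.

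By deposited count the family varied far more between mice. It took 19.6%, 9.74%, 44.1%, 14.9% and 17.4% of the kappa count in anti-CTLA-4 mice 1 to 5, against 9.34%, 17.1%, 30.6%, 22.8% and 27.0% in isotype mice 1 to 5. The highest value was in anti-CTLA-4 mouse 3 and the lowest in isotype mouse 1. The means were 21.2% ± 13.3 and 21.4% ± 8.40 for anti-CTLA-4 and isotype mice (SD, n = 5 each; exact permutation test, two-sided, p = 1, the smallest possible being 0.00794).

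By mean clonotype share, IGKV6-23 was the most used of 112 kappa V genes and IGKV6-15 was the next. The order of this pair held in 6 of 10 mice. IGKV6-23 held 4.50%, 3.14%, 6.37%, 3.29% and 5.80% of kappa clonotypes in anti-CTLA-4 mice 1 to 5, against 2.85%, 3.32%, 3.10%, 3.72% and 3.97% in isotype mice 1 to 5. The values of 3 anti-CTLA-4 mice (1, 3 and 5) lay above every isotype mouse, and those of mice 2 and 4 lay within the isotype range. The log2 fold change of IGKV6-23 was 0.48 ± 0.19 (SE; edgeR, unadjusted p = 0.022, adjusted p = 0.888), the smallest unadjusted p of the 90 V calls tested. The adjusted p of this gene was 0.249 or more in each alternative. Its fold change was at least 0.329 in all 20 alternatives, which include a run without near clonotypes. Leaving out each mouse in turn gave 0.33 to 0.60, the lowest without anti-CTLA-4 mouse 3, and leaving out isotype mice 3 and 4 gave 0.49. The fold change was 0.94 when any clonotype with a higher count in some other mouse was dropped and 1.68 on deposited counts (edgeR, adjusted p = 0.519 and 0.403). The plain shares of the kappa count differed less than that scaled fit, with means of 11.1% ± 11.4 in anti-CTLA-4 mice and 7.55% ± 5.20 in isotype mice (SD, n = 5 each), and their medians ran the other way, at 6.19% in anti-CTLA-4 mice and 7.27% in isotype mice.

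IGKV6-15 was the steadiest of the larger members. It held 3.41%, 3.59%, 3.87%, 3.48% and 3.73% in anti-CTLA-4 mice 1 to 5, against 3.47%, 3.09%, 3.52%, 3.21% and 3.06% in isotype mice 1 to 5. Its values in anti-CTLA-4 mice 2, 3 and 5 lay above all isotype mice, and the log2 fold change was 0.19 ± 0.13 (SE; edgeR, adjusted p = 0.888). IGKV6-32 held 1.91%, 1.76%, 1.46%, 1.12% and 1.91% in anti-CTLA-4 mice 1 to 5, against 1.58%, 2.09%, 4.23%, 2.55% and 1.69% in isotype mice 1 to 5. Isotype mouse 3 was far above the rest. Near clonotypes were 91 of its 172 IGKV6-32 clonotypes, and numbered 5 to 30 in the other mice. The log2 fold change of IGKV6-32 was −0.56 ± 0.25 (SE; edgeR, unadjusted p = 0.039, adjusted p = 0.888), −0.24 without isotype mouse 3, −0.10 without isotype mice 3 and 4, and 0.18 on deposited counts. As a plain share of the kappa count, IGKV6-32 held 2.84% ± 1.66 in anti-CTLA-4 mice and 4.64% ± 2.72 in isotype mice (SD, n = 5 each). The mean share was thus lower in anti-CTLA-4 mice by count as by clonotypes, while the scaled fit on counts had the opposite sign.

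The remaining members were used less. Over all 10 mice, IGKV6-20 held 1.52% ± 0.346 of kappa clonotypes, IGKV6-13 held 1.49% ± 0.408, IGKV6-17 held 1.33% ± 0.195 and IGKV6-25 held 0.855% ± 0.0947 (SD, n = 10). IGKV6-14 held 0.523% ± 0.0941 and IGKV6-29, the rarest, held 0.334% ± 0.0752 (SD, n = 10). IGKV6-23 exceeded IGKV6-15 in 6 of 10 mice, IGKV6-15 exceeded IGKV6-32 in 9, and IGKV6-32 exceeded IGKV6-20 in 8. Neither IGKV6-20 over IGKV6-13 nor IGKV6-13 over IGKV6-17 held in more than 6 mice. These neighbours, like IGKV6-23 and IGKV6-15, thus did not differ beyond their spread. IGKV6-17 exceeded IGKV6-25, IGKV6-25 exceeded IGKV6-14, and IGKV6-14 exceeded IGKV6-29 in 10 of 10 mice. The log2 fold changes of these 6 genes lay between −0.33 for IGKV6-29 and 0.12 for IGKV6-14 and IGKV6-20, with adjusted p of 0.963 or more (edgeR). Among the 9 genes, 5 fold changes were above 0, with a median of 0.02, beside 49 of 90 and a median of 0.01 over all V calls tested. None of the 90 passed the adjusted threshold (0% called), 3 passed an unadjusted p of 0.05 (3.33%), 2 of them IGKV6 genes, and DESeq2 called 0, with 2 at an unadjusted p of 0.05.

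**Figure D1:**
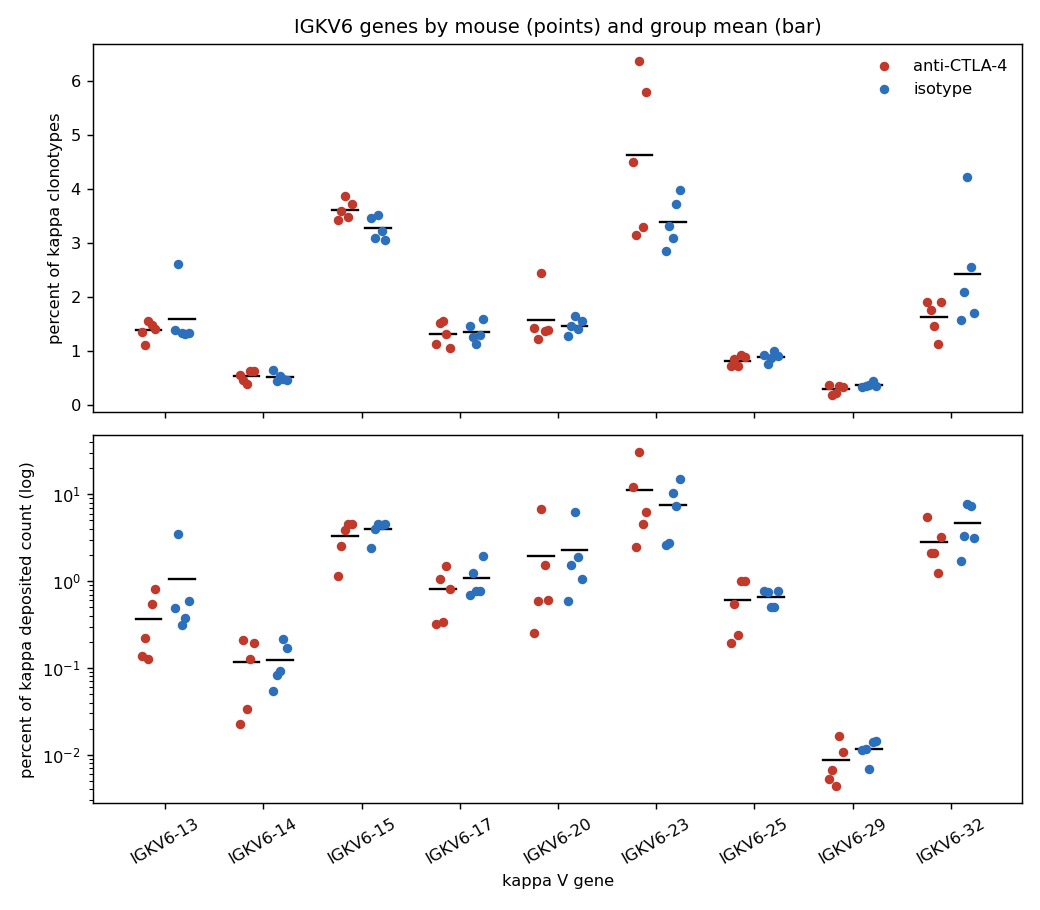
Share of kappa clonotypes (top) and of the kappa deposited count (bottom, log axis) for each IGKV6 gene, in percent; each point is 1 mouse and the bars are group means, anti-CTLA-4 left and isotype right. IGKV6-23 had its 3 highest clonotype shares in anti-CTLA-4 mice, and isotype mouse 3 had the highest IGKV6-32 share, 4.23%. Near clonotypes are counted in these shares.

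The share of the kappa count held by single genes varied widely between mice. IGKV6-23 took 12.0%, 2.47%, 30.5%, 4.53% and 6.19% of the kappa count in anti-CTLA-4 mice 1 to 5, against 2.60%, 2.76%, 10.3%, 7.27% and 14.8% in isotype mice 1 to 5. IGKV6-20 took 6.85% in anti-CTLA-4 mouse 3 and 0.251% to 1.52% in the other anti-CTLA-4 mice, against 6.29% in isotype mouse 3 and 0.587% to 1.91% in the other isotype mice. IGKV6-13 took 0.126% to 0.814% in anti-CTLA-4 mice, against 3.52% in isotype mouse 2 and 0.309% to 0.585% in the other isotype mice. IGKV6-23 was above 10% in 2 mice of each group, IGKV6-20 was high in 1 mouse of each group, and IGKV6-13 in 1 isotype mouse.

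The genes outside the family whose clonotype share moved most like that of IGKV6 over the 10 mice were IGKV5-48, IGKV17-121 and IGKV12-41. Likeness was the root mean square difference between log2 shares centred on each gene's own mean. It was 0.140, 0.149 and 0.157 for these genes in that order, among 78 genes compared, beside a root mean square of 0.135 for the family's own deviations. Their distance from IGKV6 was thus as large as the family's own movement.

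IGKV6 genes were paired with the J genes in another mix than other kappa genes. IGKJ1, the most V-proximal J gene, was joined to 19.7% ± 2.21 of IGKV6 clonotypes and 26.9% ± 0.644 of other kappa clonotypes (SD, n = 10). The share was lower for IGKV6 in 10 of 10 mice (exact sign-flip permutation test over mice, two-sided, p = 0.00195, the smallest it can give, adjusted over 8 measures p = 0.0156). IGKJ2 was joined to 32.8% ± 4.14 of IGKV6 clonotypes and 29.3% ± 0.669 of other clonotypes, and was higher for IGKV6 in 8 of 10 mice (exact permutation p = 0.0137, adjusted p = 0.0365). That call was lost when any of 8 of the mice was left out (adjusted p up to 0.0729), the exceptions being isotype mice 3 and 4. It was also lost without 25 V calls that were mismatched in most of their clonotypes, at 3.44 percentage points (exact permutation, adjusted p = 0.0547). Without isotype mice 3 and 4 together, the difference was −6.95 percentage points for IGKJ1 and 4.48 for IGKJ2 (exact permutation, adjusted p = 0.0312 for both). IGKJ5 was joined to 29.7% ± 6.02 and 25.5% ± 0.752 (exact permutation p = 0.0566, adjusted p = 0.113), and IGKJ4 to 17.8% ± 1.82 and 18.3% ± 0.770 (exact permutation p = 0.336, adjusted p = 0.384), for IGKV6 and other kappa clonotypes in this order (SD, n = 10). Without clonotypes 1 nucleotide from a 100 times larger one in the same mouse, the IGKJ5 difference narrowed to 1.14 points (exact permutation p = 0.42). The IGKJ1 difference was then −4.93 points, lower for IGKV6 in 10 of 10 mice. That of IGKJ2 was 3.50 points, higher for IGKV6 in 10 of 10 mice (exact permutation, adjusted p = 0.00391 for both).

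Within the family, IGKJ1 use ranged widely between genes. It was lowest in IGKV6-13, at 10.8% ± 3.40 of its clonotypes, and stood at 15.2% ± 3.22 in IGKV6-20, 16.4% ± 2.79 in IGKV6-15 and 17.6% ± 6.10 in IGKV6-23 (SD, n = 10). It was highest in IGKV6-25, at 32.7% ± 5.05, IGKV6-32, at 30.5% ± 6.80, and IGKV6-17, at 30.4% ± 4.52. IGKV6-13 used IGKJ2 most, at 41.6% ± 8.97, and IGKJ2 was its leading J gene in 9 of 10 mice. IGKJ2 also led in IGKV6-20, at 38.5% ± 13.4 and in 7 mice, and in IGKV6-15, at 34.5% ± 3.94 and in 6 mice (SD, n = 10), with IGKJ2 and IGKJ5 tied in 1 further mouse for each gene. In IGKV6-23 the lead was held by IGKJ5 in 5 mice and by IGKJ2 in 3, and they were tied in 2. IGKV6-23 joined IGKJ5 in 38.3%, 30.5%, 59.7%, 36.3% and 13.8% of its clonotypes in anti-CTLA-4 mice 1 to 5, against 26.1%, 29.2%, 41.3%, 35.5% and 25.4% in isotype mice 1 to 5. Both the highest and the lowest of these were anti-CTLA-4 mice, 3 and 5. IGKV6-32 joined IGKJ5 in 25.5%, 33.3%, 17.8%, 21.7% and 29.0% of its clonotypes in anti-CTLA-4 mice 1 to 5, against 19.6%, 14.6%, 64.0%, 48.2% and 23.1% in isotype mice 1 to 5. Isotype mice 3 and 4 lay above every other mouse, and there IGKJ5 held 89.3% and 81.5% of the IGKV6-32 count. No J pairing of a gene passed the test between groups: of 130 V-J combinations tested, 19 of them IGKV6, 0 passed (0% called; edgeR), with 4 at an unadjusted p of 0.05 (3.08%; 4 by DESeq2). Of those, the IGKV6 combinations, named here after their values were seen, were IGKV6-32 with IGKJ2 (log2 fold change −0.75, adjusted p = 0.824) and IGKV6-15 with IGKJ5 (0.53, adjusted p = 0.824).

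**Figure D2:**
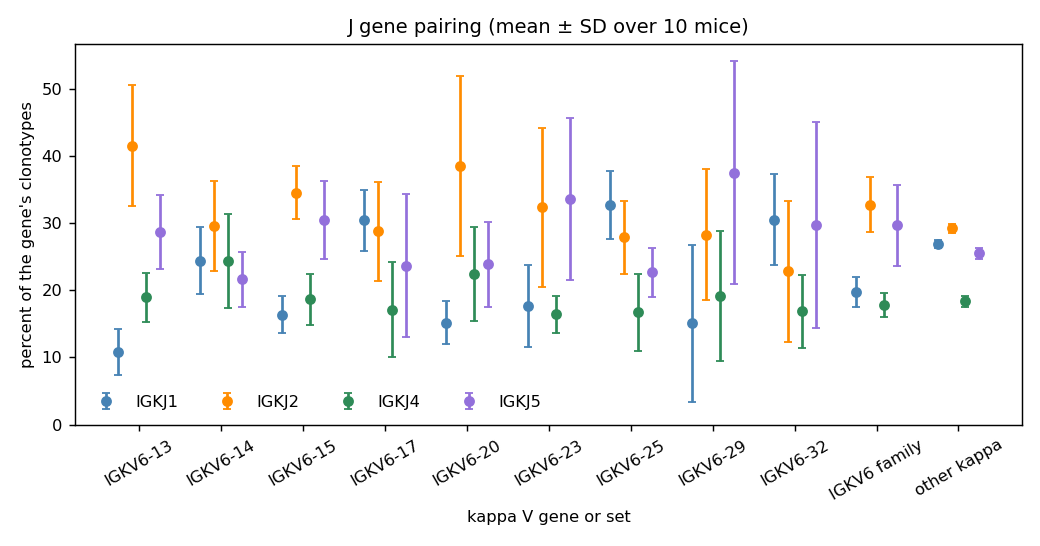
Share of each gene's clonotypes joined to IGKJ1, IGKJ2, IGKJ4 and IGKJ5, in percent; points are means over 10 mice and bars are SD, with the whole family and other kappa clonotypes at the right. IGKJ1 was lowest in IGKV6-13 and above 30% in IGKV6-17, IGKV6-25 and IGKV6-32.

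CDR3 of 9 residues was the commonest length. It was found in 59.2% ± 5.99 of IGKV6 clonotypes in anti-CTLA-4 mice and 55.8% ± 4.64 in isotype mice (SD, n = 5 each; exact permutation p = 0.333, adjusted over 6 readouts p = 0.705). Against other kappa clonotypes, the shares were 57.5% ± 5.36 for IGKV6 and 58.7% ± 3.83 for the others (SD, n = 10; exact permutation p = 0.473, adjusted p = 0.473). That comparison changed with the treatment of small clonotypes. With clonotypes of at least 2 counts the difference was −5.75 percentage points (exact permutation, adjusted p = 0.0156). Without clonotypes 1 nucleotide from a 100 times larger one in the same mouse, which were 20.3% of IGKV6 clonotypes and 12.8% of others, it was −5.94 points (exact permutation, adjusted p = 0.00391). By count, 93.9% ± 3.73 of IGKV6 had a CDR3 of 9 residues (SD, n = 10). Between genes, the clonotype share with 9 residues was highest in IGKV6-14, at 72.4% ± 10.0, and IGKV6-25, at 71.9% ± 5.62, and lowest in IGKV6-13, at 48.5% ± 8.76, and IGKV6-15, at 50.6% ± 5.11 (SD, n = 10). CDR3s of 8 residues were commonest in IGKV6-29 (30.3% ± 12.1) and IGKV6-32 (28.6% ± 6.93), and those of 10 residues in IGKV6-15 (18.4% ± 2.20).

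With counts summed over all mice, each gene was led by 1 or a few CDR3 sequences, most with a proline at position 7 of 9. QQYSSYPLT took 75.0% of the IGKV6-23 count over all mice, GQSYSYPYT took 65.8% of IGKV6-20, QQYSSYPYT took 57.1% of IGKV6-13 and QQYNSYPLT took 45.4% of IGKV6-15. IGKV6-17 and IGKV6-25 shared QQHYSTPYT, at 23.5% and 25.7% of their counts. Proline stood at position 7 of 9 in 85.9% ± 2.19 of the family's CDR3s of 9 residues, but in 25.4% ± 8.68 of those of IGKV6-29 and 98.1% ± 4.38 of those of IGKV6-14 (SD, n = 10). QQDYSSPPT, the commonest CDR3 of IGKV6-32 at 41.8% of its count, and LQHWNYPYT, at 33.5% of IGKV6-14, also carry that proline. IGKV6-29 was led by GQGYSYLT, of 8 residues, at 24.9% of its count. These summed shares lean on large clonotypes of single mice. A single junction of isotype mouse 2 gave 10753 of the 13150 counts of QQYSSYPYT in IGKV6-13. Another, of anti-CTLA-4 mouse 3, gave 120842 of the 246434 of QQYSSYPLT in IGKV6-23. Of the 52957 counts of GQSYSYPYT in IGKV6-20, isotype mouse 3 gave 24172 and anti-CTLA-4 mouse 3 gave 17850. Isotype mice 3 and 4 gave 24402 and 15490 of the 52820 of QQDYSSPPT in IGKV6-32.

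The 5 IGKV6 clonotypes found in most mice, with ties broken by summed count, were found in all 10. Their junctions carry the results on clonotype counts below. Lower case marks the run of bases that matches the germline V gene and capitals mark the bases after it.
IGKV6-23 with IGKJ5, CDR3 QQYSSYPLT: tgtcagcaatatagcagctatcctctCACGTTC
IGKV6-20 with IGKJ2, CDR3 GQSYSYPYT: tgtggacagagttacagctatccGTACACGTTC
IGKV6-23 with IGKJ2, CDR3 QQYSSYPYT: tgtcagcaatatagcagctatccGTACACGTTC
IGKV6-32 with IGKJ5, CDR3 QQDYSSPPT: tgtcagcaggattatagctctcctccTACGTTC
IGKV6-32 with IGKJ1, CDR3 QQDYSSPWT: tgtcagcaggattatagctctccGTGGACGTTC
Over all mice there were 2315 distinct IGKV6 rearrangements. Of these, 148 (6.39%) were found in all 10 mice and held 89.7% of the IGKV6 count, while 1553 (67.1%) were found in 1 mouse. Among other kappa rearrangements, 925 of 11589 (7.98%) were found in all 10. By gene, 32 of 641 IGKV6-23, 30 of 477 IGKV6-15, 22 of 370 IGKV6-32, 17 of 212 IGKV6-13 and 16 of 210 IGKV6-20 rearrangements were found in all 10 mice, and 0 of 43 of IGKV6-29. IGKV6-17 had 13 of 171, and IGKV6-14 had 8 of 61. The share of a mouse's IGKV6 clonotypes found in another mouse was 70.9% ± 6.90 in anti-CTLA-4 mice and 73.0% ± 4.84 in isotype mice (SD, n = 5 each; exact permutation p = 0.587, adjusted p = 0.705). Within mice it was 72.0% ± 5.73 for IGKV6 and 75.0% ± 4.03 for other kappa clonotypes (SD, n = 10; exact permutation p = 0.113, adjusted p = 0.151). Junctions with no added base recorded between the aligned V and J can be formed again in another mouse without chance insertion. They may still hold palindromic bases, which some alignments carried past the V end. Such junctions made up 65.7% ± 4.64 of IGKV6 clonotypes and 71.4% ± 2.23 of others (SD, n = 10). Their share ran between 51.1% ± 9.52 in IGKV6-13 and 86.5% ± 9.12 in IGKV6-14. Carry-over between libraries was not tested.

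The largest IGKV6 clonotype of a mouse took a share of the family's count that varied widely. It took 52.6%, 7.90%, 62.6%, 11.3% and 20.3% in anti-CTLA-4 mice 1 to 5, against 10.7%, 18.2%, 19.3%, 21.7% and 30.4% in isotype mice 1 to 5. The 2 highest values were in anti-CTLA-4 mice 1 and 3, and the lowest was in anti-CTLA-4 mouse 2. The means were 30.9% ± 25.0 and 20.1% ± 7.08 for anti-CTLA-4 and isotype mice (SD, n = 5 each; exact permutation p = 0.397, adjusted p = 0.705). The difference of 10.9 percentage points was 2.95 without anti-CTLA-4 mouse 3, 5.45 without anti-CTLA-4 mouse 1 and 16.6 without anti-CTLA-4 mouse 2, and 5.33 when any clonotype with a higher count in some other mouse was dropped. The 10 largest clonotypes together took 69.4% ± 21.4 of the count in anti-CTLA-4 mice and 64.9% ± 10.7 in isotype mice (SD, n = 5 each).

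In anti-CTLA-4 mice 1, 3 and 4 the largest was the IGKV6-23 with IGKJ5 clonotype QQYSSYPLT, with counts of 37497, 120842 and 5493. In anti-CTLA-4 mouse 3 it alone made up 27.6% of the kappa count, in 469 assembled sequences, and 94.7% of its count had no V mismatch. The same clonotype was the largest in isotype mouse 1, with a count of 3162. In anti-CTLA-4 mouse 2 the largest was IGKV6-32 with IGKJ1, QQDYSSPWT (2291), and in anti-CTLA-4 mouse 5 IGKV6-23 with IGKJ2, QQYSSYPYT (9962). Isotype mouse 5 was led by the same IGKV6-23 with IGKJ2 junction (15817), and isotype mouse 2 by IGKV6-13 with IGKJ2 (10753), which encodes the same CDR3.

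Isotype mice 3 and 4 were both led by the IGKV6-32 with IGKJ5 clonotype QQDYSSPPT, with counts of 24402 and 15490. Its count was 6 to 27 in each of the other 8 mice, anti-CTLA-4 mice included. It held 682 assembled sequences in isotype mouse 3 and 190 in isotype mouse 4, and 52.2% and 55.3% of its count had no V mismatch there. This is the same pair of libraries that shared mutated IGKV6-23 sequences. Of the 13 sequences with 5 or more mismatches that they shared, 10 were IGKV6-23 and 0 were IGKV6-32. Isotype mice 3 and 4 held 180 and 23 such IGKV6-32 sequences.

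The other most shared junctions varied in each group. The IGKV6-23 with IGKJ5 junction shown above had counts of 37497, 1993, 120842, 5493 and 2599 in anti-CTLA-4 mice 1 to 5, against 3162, 1678, 19288, 6901 and 1050 in isotype mice 1 to 5. It held 27.5% of the IGKV6 count of all mice, most of it in anti-CTLA-4 mice 1 and 3. The IGKV6-20 with IGKJ2 junction had counts of 328, 400, 17850, 2208 and 507 in anti-CTLA-4 mice 1 to 5, against 748, 1135, 24172, 4606 and 794 in isotype mice 1 to 5. It was high in mouse 3 of both groups, and 95.0% of its count had no V mismatch in anti-CTLA-4 mouse 3, against 2.82% in isotype mouse 3. In isotype mouse 3, a sequence with 1 V mismatch held 20389 of the 24172 counts, and 0.894% of the count had 5 or more mismatches. IGKV6-23 with IGKJ2 had counts of 4223, 1070, 1469, 2731 and 9962 in anti-CTLA-4 mice 1 to 5, against 1190, 3095, 2013, 1376 and 15817 in isotype mice 1 to 5. Its largest counts were in mouse 5 of either group, and 84.9% of the count had no V mismatch in anti-CTLA-4 mouse 5, against 7.70% in isotype mouse 5. In isotype mouse 5, the most abundant sequence had 2 V mismatches, and 27.5% of the count had 5 or more. IGKV6-32 with IGKJ1 had counts of 19046, 2291, 1566, 839 and 577 in anti-CTLA-4 mice 1 to 5, against 451, 4459, 1356, 654 and 3364 in isotype mice 1 to 5. Only anti-CTLA-4 mouse 1 stood far above the rest for that junction. The same junction in different mice therefore differed both in count and in mismatches, with no test of these differences made.

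**Figure D3:**
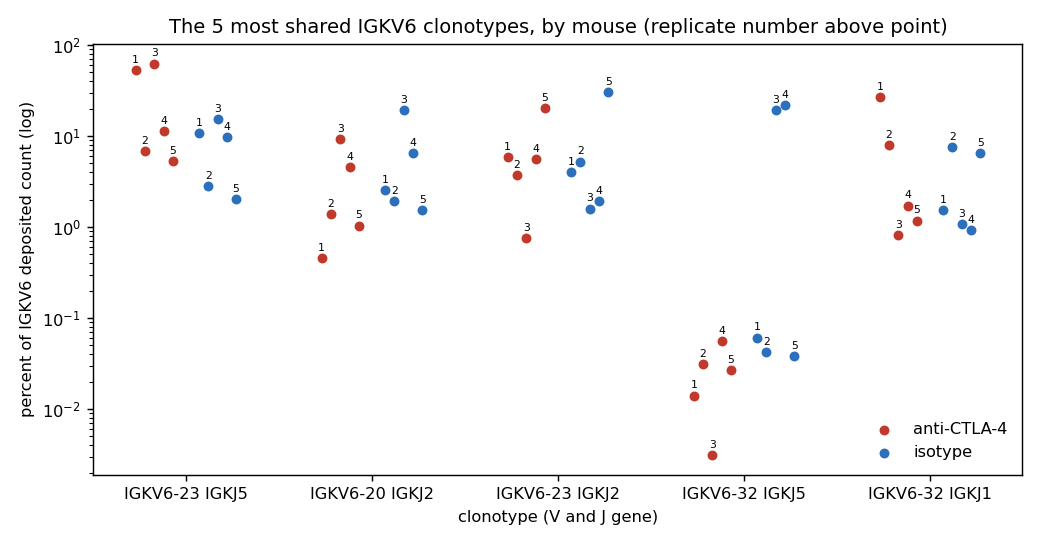
Share of each mouse's IGKV6 deposited count (percent, log axis) held by each of the 5 most shared IGKV6 clonotypes, 1 point per mouse with its replicate number, anti-CTLA-4 left and isotype right. The IGKV6-32 with IGKJ5 clonotype was at 19.3% and 21.7% in isotype mice 3 and 4 and below 0.1% in the other mice.

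V mismatches from germline, counted on the most abundant sequence of each clonotype, were few. They averaged 0.331 ± 0.139 per 100 nucleotides in anti-CTLA-4 mice and 0.288 ± 0.100 in isotype mice (SD, n = 5 each; exact permutation p = 0.587, adjusted p = 0.705). Clonotypes without any V mismatch were 65.8% ± 9.47 and 69.6% ± 7.35 in anti-CTLA-4 and isotype mice (SD, n = 5 each; exact permutation p = 0.484, adjusted p = 0.705). Against other kappa clonotypes of the same mice, IGKV6 had 0.310 ± 0.116 mismatches per 100 nucleotides and the others 0.477 ± 0.0571 (SD, n = 10), lower in 9 of 10 mice (exact permutation p = 0.00391, adjusted p = 0.0156). Leaving out 25 V calls that were mismatched in most of their clonotypes, 4 of them naming IGKV6 genes, narrowed the difference to −0.100 per 100 nucleotides and ended the call (exact permutation p = 0.0547, adjusted p = 0.0875). Without clonotypes 1 nucleotide from a much larger one, the difference widened to −0.251, with means of 0.188 for IGKV6 and 0.439 for the others, and was lower for IGKV6 in 10 of 10 mice (exact permutation, adjusted p = 0.00391). Without isotype mice 3 and 4 the difference was −0.192 (exact permutation, adjusted p = 0.0417). Clonotypes without any V mismatch pointed the other way, at 67.7% ± 8.25 of IGKV6 and 72.0% ± 5.26 of other kappa clonotypes (SD, n = 10). That share was lower for IGKV6 in 7 of 10 mice (exact permutation p = 0.084, adjusted p = 0.134). Its difference was −6.14 points without the 25 mismatched V calls (exact permutation p = 0.0234, adjusted p = 0.0625). It was 0.810 points without clonotypes 1 nucleotide from a much larger one (exact permutation p = 0.604).

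Among the genes, IGKV6-23 carried most mismatches, 0.484 ± 0.197 per 100 nucleotides, with IGKV6-32 at 0.322 ± 0.230 and IGKV6-15 at 0.301 ± 0.135 (SD, n = 10). The other genes were at 0.0329 for IGKV6-29 to 0.163 for IGKV6-20. IGKV6-32 was at 0.852 and 0.435 in isotype mice 3 and 4 and at 0.0765 to 0.501 in the other mice. Its mean lay above that of IGKV6-15 only with that pair included. Near clonotypes were kept in all these means. Of assembled IGKV6-23 sequences, 16.7% ± 13.9 had 5 or more mismatches (SD, n = 10). IGKV6-29 had none with 5 or more. Clonotypes without any mismatch were fewest in IGKV6-23, with a mean of 59.2%, and made up 60.9% ± 17.7 of IGKV6-32, 67.7% ± 6.66 of IGKV6-15 and 92.8% ± 7.18 of IGKV6-29, and 74.9% to 82.7% of the other 5 genes (SD, n = 10).

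Non-productive kappa sequences, which encode no chain, gave another view of the family. IGKV6 made up 18.8% ± 4.72 of productive and 12.0% ± 1.51 of non-productive kappa sequences (SD, n = 10). IGKV6-23 made up 5.79% ± 3.28 and 2.87% ± 0.652, IGKV6-32 made up 3.67% ± 3.23 and 1.25% ± 1.01, and IGKV6-15 made up 3.77% ± 0.546 and 3.82% ± 1.19, productive first. IGKV6-23 and IGKV6-32 thus had a larger mean share among productive sequences, with a wide spread, and IGKV6-15 nearly the same mean share in both. The non-productive mean of IGKV6-15 includes 7.09% in isotype mouse 2, with 3.01% to 4.08% in the other mice. These shares are of assembled sequences and not clonotypes, and no difference between productive and non-productive shares was tested.

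**Figure D4:**
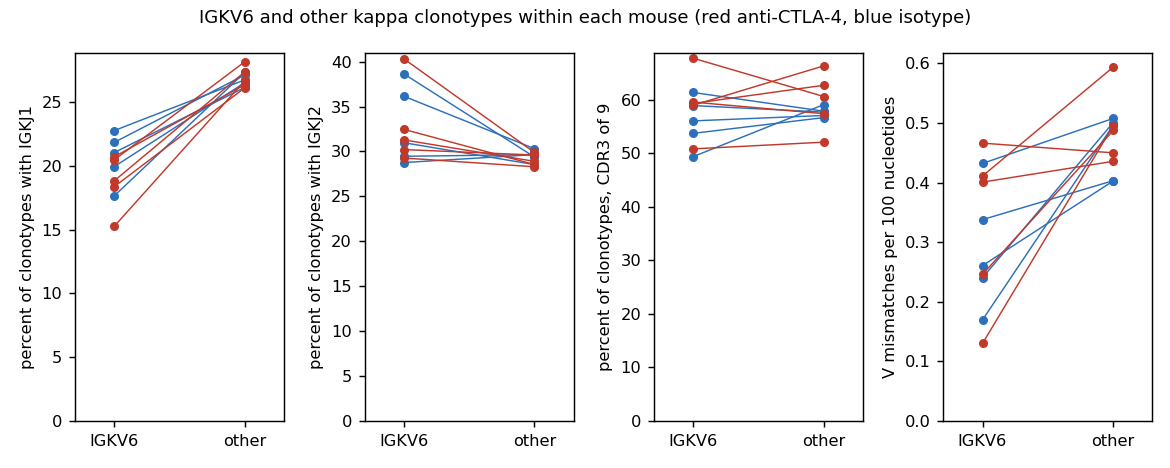
IGKV6 (left of each panel) and other kappa clonotypes (right) in the same mice, 1 line per mouse: percent with IGKJ1, with IGKJ2 and with a CDR3 of 9 residues, and V mismatches per 100 nucleotides. IGKJ1 was lower for IGKV6 in 10 of 10 mice, and mismatches in 9 of 10.

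Weighted by count, mismatches were concentrated in a few mice. Sequences with 5 or more V mismatches held 0.243%, 4.39%, 0.494%, 0.0657% and 6.25% of the IGKV6 count in anti-CTLA-4 mice 1 to 5, against 1.28%, 0.118%, 15.6%, 19.3% and 19.1% in isotype mice 1 to 5. The 3 highest values were isotype mice 3, 4 and 5, and the lowest values occurred in both groups. Without isotype mice 3 and 4, the sequences of isotype mouse 5 alone lay above the anti-CTLA-4 mice. A count-weighted mean gave each clonotype's whole count the mismatches of its most abundant sequence. It was 0.0795 ± 0.0869 mismatches per 100 nucleotides in anti-CTLA-4 mice and 0.374 ± 0.304 in isotype mice (SD, n = 5 each). The difference of −0.294 had the opposite sign to the mean over clonotypes (exact permutation p = 0.103, adjusted p = 0.619). With each sequence weighted by its own count, the values were 0.0336, 0.205, 0.0413, 0.0415 and 0.295 in anti-CTLA-4 mice 1 to 5. They were 0.0921, 0.0505, 0.639, 0.703 and 0.667 in isotype mice 1 to 5.

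**Figure D5:**
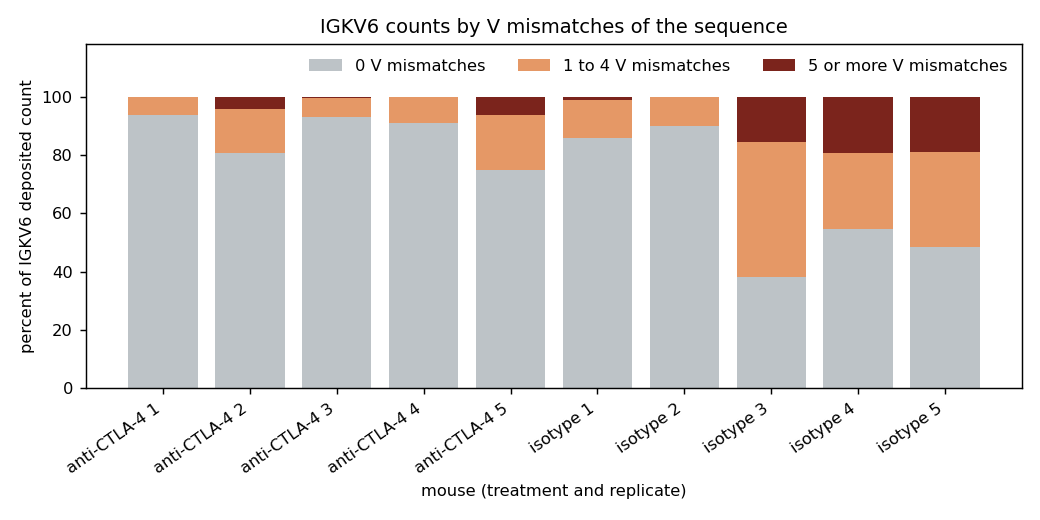
Percent of each mouse's IGKV6 deposited count in sequences with 0, 1 to 4, and 5 or more V mismatches, stacked to 100, anti-CTLA-4 mice left and isotype mice right. Isotype mice 3, 4 and 5 had 15.6%, 19.3% and 19.1% in the class with most mismatches, and every anti-CTLA-4 mouse had at most 6.25%.

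In isotype mice 3, 4 and 5, most of that mutated count belonged to IGKV6-23. The most abundant one with 5 or more mismatches in isotype mouse 3 had a count of 13531 there and 4973 in isotype mouse 4, and was in no other mouse. It is shown over its 287 V nucleotides beside a sequence of isotype mouse 5 with a count of 4061 over 284, found in that mouse alone. Capitals mark bases that differ from the germline alignment, and positions are counted from 1 at the first base of the V region.
isotype mice 3 and 4, IGKV6-23 with IGKJ5: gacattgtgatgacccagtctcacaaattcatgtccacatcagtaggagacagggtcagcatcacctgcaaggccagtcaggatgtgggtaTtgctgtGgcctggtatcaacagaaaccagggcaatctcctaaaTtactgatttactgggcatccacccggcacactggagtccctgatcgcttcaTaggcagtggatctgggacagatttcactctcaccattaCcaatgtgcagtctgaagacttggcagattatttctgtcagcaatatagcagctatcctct
isotype mouse 5, IGKV6-23 with IGKJ2: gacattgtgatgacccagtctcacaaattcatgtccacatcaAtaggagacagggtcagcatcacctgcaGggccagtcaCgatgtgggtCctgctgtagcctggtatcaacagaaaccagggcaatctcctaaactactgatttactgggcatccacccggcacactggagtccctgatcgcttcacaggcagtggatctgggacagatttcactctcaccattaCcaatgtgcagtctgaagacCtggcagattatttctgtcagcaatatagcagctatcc
The first carries C92T, A99G, C136T, C188T and G227C, of which 3 replace a residue and 2 are silent. The second carries G43A, A71G, G81C, A91C, G227C and T247C, of which 5 replace a residue. Only G227C is in both. The substitutions are recorded in assembled sequences, and their error rate could not be measured from the tables.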

How the data were processed

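B cell receptor libraries were made with a commercial mouse kit that adds molecular identifiers, from RNA of whole dissociated nodes, per the labels' protocols. Each mouse has a deposited AIRR rearrangement table whose columns, per the file headers, hold gene calls, alignments and a whole-number count for every assembled sequence. No source used here gives the aligner, germline set or treatment of identifiers, so counts may include PCR copies. Non-productive kappa sequences (24.7%) were left out. V names were set against the GRCm38.p6 gene table, where 112 of 112 kappa V names and 9 of 9 IGKV6 names matched, for names and neighbour order alone.

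Clonotype numbers per V call, V family and V-J combination were tested with edgeR 4.0.16 (glmQLFit and glmQLFTest, TMM, filterByExpr) in R 4.3.3, all calls together, at an adjusted p of 0.05. SE was derived from F. DESeq2 1.42.0 was an alternative. The scripts were tested on simulated data. Single values per mouse were compared by exact permutation over the 252 reassignments, or by sign flips within the 10 mice, with Benjamini-Hochberg adjustment over 6 and 8 tests. Mismatches needed at least 200 aligned V nucleotides, gaps left out. Replicates are separate mice per the labels. Named were all members, the 3 genes outside the family most like it, the largest clonotype of each mouse and the 5 found in most mice. Members and lists were chosen with earlier results of these data known. Leaving out near clonotypes, mismatched V calls, or isotype mice 3 and 4, and using each assembled sequence, were chosen after seeing the data.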

Additional observations from a re-analysis of the deposited data

Results flagged for a closer look

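Dixon's test for a value far from the others of its group of 5 was applied to 58 sets of values, of which 8 were beyond the critical value, while chance gives about 1 in 20 (2.9). IGKV6-13 held 2.60% of kappa clonotypes in isotype mouse 2 (1.32% to 1.39% in the other isotype mice) and 3.52% of the kappa count (0.309% to 0.585%). IGKV6-20 held 2.44% of kappa clonotypes in anti-CTLA-4 mouse 3 (1.22% to 1.43% in the other anti-CTLA-4 mice) and 6.85% of the kappa count (0.251% to 1.52%), and 6.29% of the count in isotype mouse 3 (0.587% to 1.91% in the other isotype mice). Near clonotypes were 35 of the 102 IGKV6-13 clonotypes in isotype mouse 2 (0 to 3 in the other isotype mice). They were 29 of the 75 IGKV6-20 clonotypes in anti-CTLA-4 mouse 3 (2 to 8 in the other anti-CTLA-4 mice). IGKV6-29 held 0.451% of kappa clonotypes in isotype mouse 4 (0.340% to 0.369%). The family held 44.1% of the kappa count in anti-CTLA-4 mouse 3 (9.74% to 19.6%), and IGKJ2 was joined to 40.3% of its clonotypes in anti-CTLA-4 mouse 5 (29.3% to 32.5%).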

How the results depend on the processing

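Of 474 recomputed values of 29 results, 433 kept their direction and side of the threshold. No V gene, family or V-J combination passed under any alternative run. The sign of small fold changes turned. The family's log2 fold change was −0.00037 with no filter and −0.0343 to 0.0902 with each mouse left out. IGKV6-17 (0.02) was −0.0201 without TMM, −0.123 on deposited counts, −0.0268 without near clonotypes (those 1 nucleotide from a 100 times larger one), −0.0719 without isotype mice 3 and 4, and −0.0571 to 0.108 with each mouse left out. IGKV6-25 (−0.06) was 0.0403 on deposited counts, 0.0027 without clonotypes with more counts in another mouse and 0.0452 without near clonotypes. IGKV6-32 was 0.18 in the scaled fit on deposited counts. With each mouse left out, IGKV6-13 was −0.249 to 0.0890 and IGKV6-20 was −0.0940 to 0.184, the signs turning without isotype mouse 2 and without anti-CTLA-4 mouse 3. The IGKV6 share of kappa counts differed by −5.96 to 2.63 points with each mouse left out and by 3.32 without isotype mice 3 and 4. The share of the largest IGKV6 clonotype differed by 2.95 to 16.6 points with each mouse left out. IGKV6 mismatches of each clonotype's most abundant sequence differed between groups by −0.294 when weighted by clonotype count. The difference was −0.0383 with each assembled sequence counted. Against other kappa clonotypes, the IGKJ4 difference was 0.0402 points at a count of at least 2 and 0.245 without near clonotypes, that of IGKJ5 was 1.14 without near clonotypes, and that of clonotypes without V mismatch was 0.810 without near clonotypes. The CDR3 difference was −5.75 at a count of at least 2 and −5.94 without near clonotypes. The mismatch difference was −0.100 without mismatched V calls, and −0.251 without near clonotypes. The IGKJ2 difference was 3.44 without mismatched V calls, 3.50 without near clonotypes and 2.71 to 3.96 points with each mouse left out. That of IGKJ1 was −4.93 points without near clonotypes. The causes were not tested. Same-numbered mice did not deviate together in V usage (correlations −0.109 to 0.0021 over 90 V calls). That comparison covers V usage alone, so it cannot decide whether equal numbers share a cage or a processing batch. With the replicate block, 0 genes, 0 families and 0 V-J combinations passed, and IGKV6-23 was 0.44 (edgeR, adjusted p = 0.920). A clonotype seen once rests on 1 count, so rare genes such as IGKV6-29, with 7 to 15 clonotypes per mouse, are the least precisely measured.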
